A study of Mus musculus with 6 samples.

Results

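CXC chemokines are small secreted proteins, named for a pair of cysteines with 1 residue between them, that steer leukocytes through receptors of the Cxcr family. Measured here were 7 of their mouse genes, Cxcl1, Cxcl2, Cxcl3, Cxcl9, Cxcl10, Cxcl12 and Cxcl16, chosen by symbol among 31053 genes in single-cell RNA sequencing of 6 libraries. Kidney came from 12-week-old male C57BL/6 mice and mammary tumor from 10-week-old female MMTV-PyMT mice, in which the MMTV promoter drives the polyoma middle T antigen in mammary epithelium. Each tissue gave 3 libraries, namely a 60 min control, a 15 min interval and a 60 min interval. All tissue was minced and digested with type I collagenase. Controls were digested in a shaking incubator at 37 °C and then pipetted and vortexed. The 2 platform libraries of a tissue were drawn from 1 sample, with cells eluted from a microfluidic digestion and dissociation platform after 15 min and the rest of the tissue then processed to 60 min. By the study's methods, the conditions of a replicate used tissue of a single source mouse. Red cells were lysed and dead cells removed by sorting in every library. Each condition was 1 library, so no test between conditions was possible, and every interval given is a 95% interval that covers counting error only.

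Cxcl1, Cxcl2 and Cxcl3 are ligands of Cxcr2 and draw neutrophils into inflamed tissue. Their transcripts are short-lived and are induced within minutes to hours by NF-κB signalling in macrophages, endothelium and epithelium. Cxcl9 and Cxcl10 are ligands of Cxcr3 and recruit activated T lymphocytes and NK cells. Both are induced by interferons, and Cxcl10 responds to type I interferon as well as to interferon-γ. Cxcl12 is made steadily by stromal and endothelial cells and holds Cxcr4-bearing cells in place, while Ackr3 scavenges it. Cxcl16 is made as a membrane protein of macrophages and dendritic cells, is shed by Adam10 and Adam17, and binds Cxcr6 on T lymphocytes.

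Cxcl1, Cxcl2 and Cxcl3 lie together on the plus strand of chromosome 5, Cxcl9 and Cxcl10 lie together on its minus strand, Cxcl12 is on chromosome 6 and Cxcl16 on chromosome 11 (mm10). Bases just before the outermost annotated start were read from RefSeq (GRCm38.p6) for 6 of the 7 genes, with Cxcl16 not in the table used. The regions shown are those of the 4 genes in which a motif searched for was found. Capitals mark a κB motif (GGAATTTCC, or its complement GGAAATTCC), an AP-1 motif (TGAGTCA) or an interferon-stimulated response element (GAAANNGAAA), searched on both strands.
Cxcl1, chr5:90891091-90891240, plus strand: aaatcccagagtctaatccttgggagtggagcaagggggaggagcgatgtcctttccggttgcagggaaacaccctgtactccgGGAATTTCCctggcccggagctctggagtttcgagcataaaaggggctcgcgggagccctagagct
Cxcl2, chr5:90903721-90903870, plus strand: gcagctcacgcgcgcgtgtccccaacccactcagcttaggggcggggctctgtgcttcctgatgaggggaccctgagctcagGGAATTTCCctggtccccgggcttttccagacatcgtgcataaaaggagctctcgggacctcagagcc
Cxcl3, chr5:90785951-90786100, plus strand: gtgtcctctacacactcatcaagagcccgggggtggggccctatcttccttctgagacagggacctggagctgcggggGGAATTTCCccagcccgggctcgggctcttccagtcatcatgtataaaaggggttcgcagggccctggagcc
Cxcl10, chr5:92348890-92349119, minus strand: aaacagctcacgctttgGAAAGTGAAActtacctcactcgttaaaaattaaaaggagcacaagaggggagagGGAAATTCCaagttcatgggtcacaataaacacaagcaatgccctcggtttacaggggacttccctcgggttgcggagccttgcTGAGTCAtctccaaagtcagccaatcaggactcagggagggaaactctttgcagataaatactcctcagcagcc

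The κB motif began 66 bases before the start of Cxcl1, 68 before that of Cxcl2 and 72 before that of Cxcl3. In Cxcl10 it began 158 bases before the start on the opposite strand, with the response element at 213 and the AP-1 motif at 74 bases. None of the 3 motifs, as spelled above, stood in the windows of Cxcl9 and Cxcl12. Other spellings of a κB site were not searched for in any of the genes. Over 250 bases before the start, the κB motif was found in 94 of 32851 mouse promoters (0.286%), the AP-1 motif in 1466 (4.46%) and the response element in 978 (2.98%). A match describes the letters and is not a binding site. Cxcl2 and Cxcl3 transcripts share a run of 157 identical bases, so reads from that stretch could be assigned to either gene. It lies 1687 bases or more from the 3′ end of Cxcl2 and 850 bases or more from that of Cxcl3, and no other pair of the 7 genes shares a run over 23 bases.

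After the gene and mitochondrial limits of the study's methods, 5886, 8390 and 9936 kidney cells (control, 15 min, 60 min) and 5736, 5802 and 6024 tumor cells were kept. Median UMIs (unique molecular identifiers, or counted transcripts) per kept cell ran from 4583 to 6612 in kidney and from 8211 to 9476 in tumor. The kidney 15 min library stood apart, with a median of 20.4% mitochondrial UMIs against 7.38% in the control and 8.59% at 60 min, and it held 134 macrophage-like cells against 836 and 1497. Among barcodes, 309 of 33701 sequences occurred in more than 1 kidney library and 57 of 24470 in more than 1 tumor library. Cells were put in classes by 8 markers each, none of them a chemokine, and are called X-like. A cell needed UMIs of 3 of the 8 markers and a lead of 2 over any other class, which left 2.44% to 12.3% of cells without a class. Doublets were limited only by the gene maximum and by this lead. Of the kidney macrophage-like cells, 27, 9 and 46 sat at the minimum of markers and 32, 12 and 91 at the minimum lead, and in tumor 18, 6 and 17 and 61, 26 and 44 did. Their median for the other class with the most marker UMIs was between 0 and 1.61 UMIs per 10000. All 8 macrophage markers were found in macrophage-like cells of every library, C1qa (a complement subunit) at 4292 to 5639 UMIs per 1000000 in kidney and at 5912 to 7464 in tumor. Levels are given in CPM, the UMIs of a gene per 1000000 UMIs of the class in that library, and were compared within a gene only.

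Macrophage-like cells held most of the Cxcl2 UMIs of the control and 60 min libraries (94.4% and 86% in kidney, 81.2% and 88.4% in tumor), and granulocyte-like cells had the highest Cxcl2 level of any class. In macrophage-like cells the neutrophil-recruiting genes Cxcl1, Cxcl2 and Cxcl3 were all lower in the 15 min interval than in the control of both tissues. Cxcl10 was 11.6-fold higher in the kidney 60 min interval than in the control and 5.59-fold higher in tumor. Cxcl16 stayed within 1.36-fold of the control in macrophage-like cells of both tissues. Cxcl12 was highest in stromal-like cells of kidney and in endothelial-like and fibroblast-like cells of tumor. The heat map of levels shows this layout for every class and library.

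**Figure D1:**
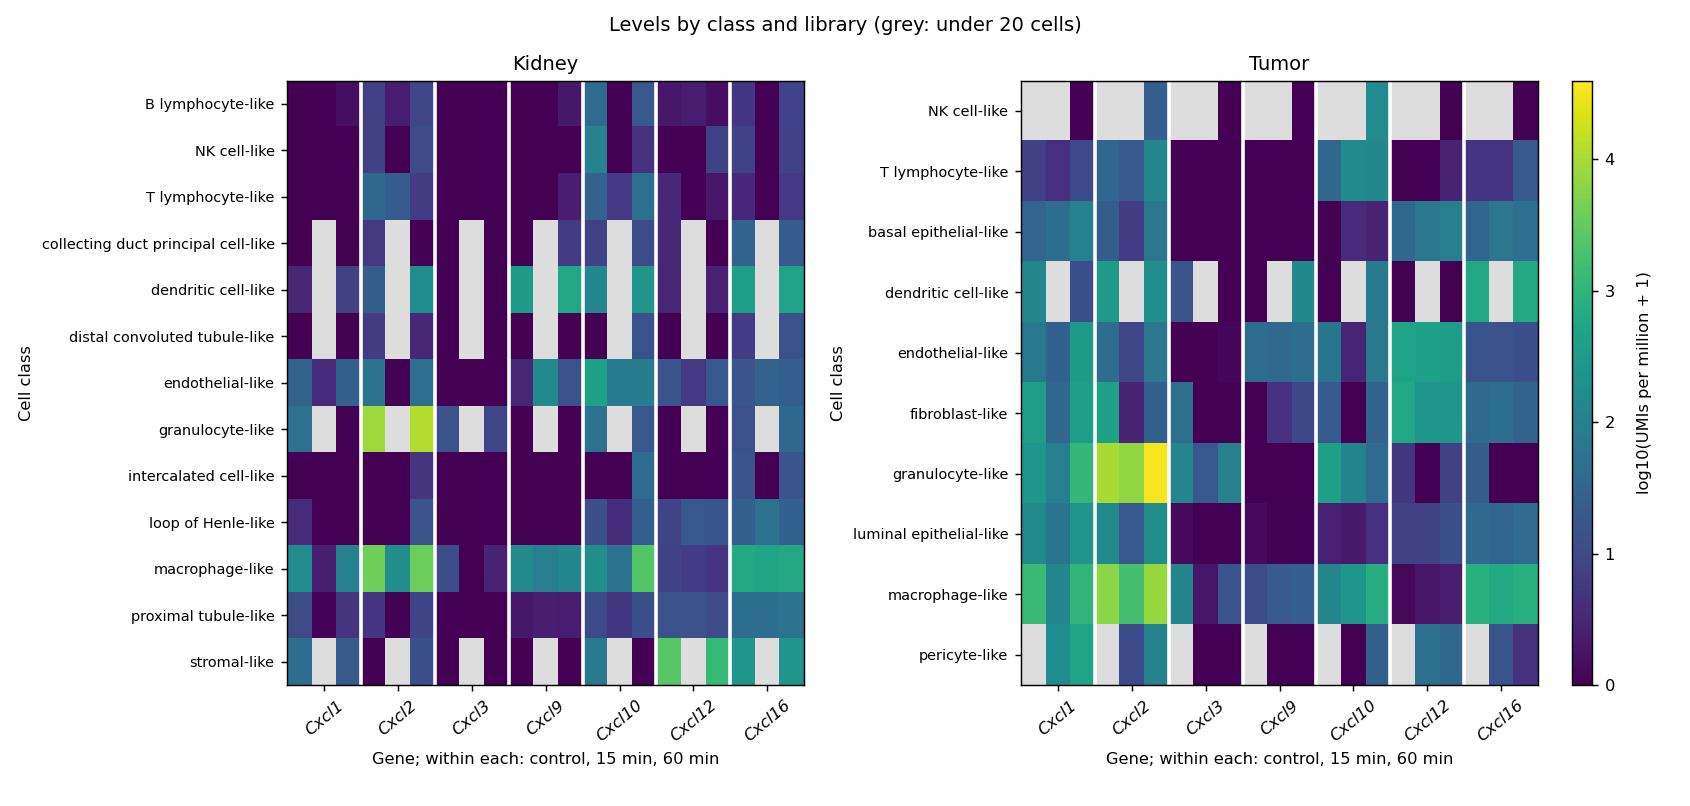
Level of each chemokine gene (columns, italic names) in each cell class (rows) of kidney (left) and mammary tumor (right), as log10 of CPM plus 1, with 3 columns per gene for the control, the 15 min interval and the 60 min interval. Grey marks classes of under 20 cells. Cxcl2 is brightest in granulocyte-like and macrophage-like cells, at up to 35132 CPM in tumor granulocyte-like cells at 60 min, and Cxcl12 in kidney stromal-like cells.

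Libraries were compared within a class where both held at least 20 cells and together at least 20 UMIs of the gene. In kidney, 23 pairs of chemokine gene and class could be compared between the 15 min interval and the control. Of these, 2 were at least 2-fold higher, against 3.38% of all pairs of gene and class, and 13 at least 2-fold lower, against 5.09%. At 60 min against the control, 4 of 36 pairs were higher (5.6% of all pairs) and 6 lower (2.34%). That balance depended on the processing, with 14 higher and 7 lower of 41 pairs without upper limits on genes and mitochondrial UMIs, 13 and 6 of 42 with a gate of 2 markers, and 13 and 7 of 44 with the highest mean marker level as the gate. At 60 min against 15 min, 12 of 25 were higher (8.45%) and 3 lower (3.27%). In tumor, 3 of 31 pairs were higher at 15 min than in the control (6.46%) and 15 lower (4.05%). At 60 min against the control 14 of 42 were higher (5.71%) and 6 lower (3.95%), and at 60 min against 15 min 23 of 38 were higher (4.6%) and 1 lower (5.58%). The 3 comparisons of a tissue share libraries and are not independent of each other.

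In macrophage-like cells alone, 4 of the 7 genes were at least 2-fold lower at 15 min than in the kidney control (Cxcl1, Cxcl2, Cxcl3 and Cxcl10), where 6.37% of all genes were, and none was higher, where 6.63% were. At 60 min against the control, Cxcl10 was higher (4.4% of all genes) and Cxcl3 lower (1.06%). Between the kidney intervals 6 genes could be compared, and Cxcl1, Cxcl2 and Cxcl10 were higher at 60 min (8.32%) with none lower (6.56%). In tumor macrophage-like cells, Cxcl1, Cxcl2 and Cxcl3 of 6 genes were lower at 15 min than in the control (4.49% of all genes) and Cxcl10 was higher (11.2%). At 60 min against the control Cxcl9, Cxcl10 and Cxcl12 of 7 genes were higher (5.42%) and Cxcl3 lower (2.46%). Against 15 min, Cxcl1, Cxcl2, Cxcl3 and Cxcl10 were higher at 60 min (3.9%) and none of the 7 was lower (4.86%). The median gene of tumor macrophage-like cells was itself higher by 0.27 on the log2 scale at 15 min than in the control, and that of kidney macrophage-like cells by 0.13, so the genes named lower there moved against the median.

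Cxcl2 in kidney macrophage-like cells stood at 3872 CPM in the control (22222 UMIs in 836 cells), 179 after 15 min (128 UMIs in 134 cells, interval 149 to 213) and 3570 after 60 min (32498 UMIs in 1497 cells). The 15 min level was 21.6-fold below the control (interval of the ratio 0.0385 to 0.055), while the 60 min level was 0.922 times the control. In tumor macrophage-like cells Cxcl2 was 6398 in the control, 1718 after 15 min and 7896 after 60 min. The 15 min interval was again the low library, 3.72-fold below the control and 4.59-fold below the 60 min interval (interval 4.52 to 4.67).

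Granulocyte-like cells, the class that also carries the receptor Cxcr2, had Cxcl2 at 8336 CPM in the kidney control (37 cells) and 11934 at 60 min (44 cells), with only 9 such cells at 15 min. In tumor they had 9905, 6951 and 35132 in the control, 15 min and 60 min libraries, from 275, 110 and 70 cells. The tumor 60 min level was 3.55-fold above the control (interval 3.42 to 3.68). In kidney the 60 min level was 1.43-fold above the control (interval 1.3 to 1.57). Cxcl2 was also lower at 15 min in tumor luminal epithelial-like cells, the PyMT tumor epithelium, at 17.1 against 150 in the control and 187 at 60 min. With cells thinned to 1000 UMIs, 4.95%, 1.2% and 5.94% of these cells had Cxcl2 (control, 15 min, 60 min). T lymphocyte-like cells of the tumor had 4.47%, 0.971% and 4.26%, also lowest at 15 min. Their levels were 30.7, 18.1 and 130 CPM, below the luminal ones in the control and at 60 min but not at 15 min. Most of their UMIs at 60 min lay in 1 cell. How far the luminal drop is background was not tested. In kidney proximal tubule-like cells 2 UMIs of Cxcl2 were found in 7170 cells at 15 min, against 76 UMIs in 2960 control cells and 142 UMIs in 2871 cells at 60 min. With cells thinned to 1000 UMIs, the proximal tubule-like share with Cxcl2 in the control was 0.558%, below the 0.951% of T lymphocyte-like cells, and is read as background. At 60 min it was 0.848%, barely above their 0.797%, so no order of the libraries is read from this class. The median gene of that class differed by -0.21 on the log2 scale at 15 min from the control, and by -0.07 with mitochondrial UMIs left out of the total. In kidney endothelial-like cells Cxcl2 was at 55.6 in the control, 0 in 376 cells after 15 min and 46.3 after 60 min, so the 15 min level was at least 27-fold below the control with 3 UMIs as the floor. Tumor fibroblast-like Cxcl2 (420, 1.77 and 24.4) rested in the control on 1 cell with 91 of 169 UMIs, and its share at 60 min was below that of T lymphocyte-like cells.

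Cxcl1 in macrophage-like cells was also lowest in the 15 min interval. In kidney macrophage-like cells it was 172 CPM in the control, 1.4 after 15 min (1 UMI, interval 0.0354 to 7.79) and 104 after 60 min. The ratio of 15 min to control was 0.00814 (interval 0.000206 to 0.0454). In tumor macrophage-like cells it was 1384, 128 and 1020 in the control, 15 min and 60 min libraries, a ratio of 0.0924 at 15 min to control (interval 0.0871 to 0.0979). Outside macrophage-like cells, Cxcl1 in tumor was found in granulocyte-like cells, stroma and epithelium as well. Granulocyte-like levels were 258, 94.9 and 1099 (control, 15 min, 60 min), the last above the macrophage-like 1020. Their ratio of 60 min to control was 4.26, and 2.61 to 5.19 over the processing choices. In the 60 min library 3 of 70 granulocyte-like cells held 50% of these UMIs. Luminal epithelial-like cells had 151, 59.5 and 253, and endothelial-like cells had 72.2, 26 and 318, in the control, 15 min and 60 min libraries. The endothelial-like level at 60 min was 4.4-fold above the control (interval 3.67 to 5.3), the luminal one 1.68-fold. Fibroblast-like cells had 370 in both the control and the 60 min interval and 31.9 at 15 min. Pericyte-like cells had 169 at 15 min and 494 at 60 min. In each of these classes the 15 min interval was the lowest of the libraries with at least 20 cells. Basal epithelial-like cells differed, with 30.3 in the control (7 UMIs in 23 cells), 45.4 at 15 min (17 UMIs in 37 cells) and 106 at 60 min (113 UMIs in 112 cells). In kidney, proximal tubule-like Cxcl1 was 10.5, 0.0891 and 3.86, and endothelial-like Cxcl1 was 27.6, 2.75 and 25.1.

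Cxcl3 in macrophage-like cells was below the control in both intervals of both tissues. Tumor macrophage-like cells had 120 CPM in the control (1383 UMIs), 0.839 after 15 min (8 UMIs) and 14.5 after 60 min (255 UMIs). The 60 min level was 8.28-fold below the control (interval of the ratio 0.105 to 0.138). Kidney macrophage-like cells had 68, 0 and 16 UMIs, or 11.8, 0 and 1.76 CPM, and the 60 min level was 6.74-fold below the control. At 15 min the count of 0 allowed a level of up to 4.19. Granulocyte-like cells of the tumor had 124, 17.2 and 99.9 from 81, 4 and 15 UMIs.

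**Figure D2:**
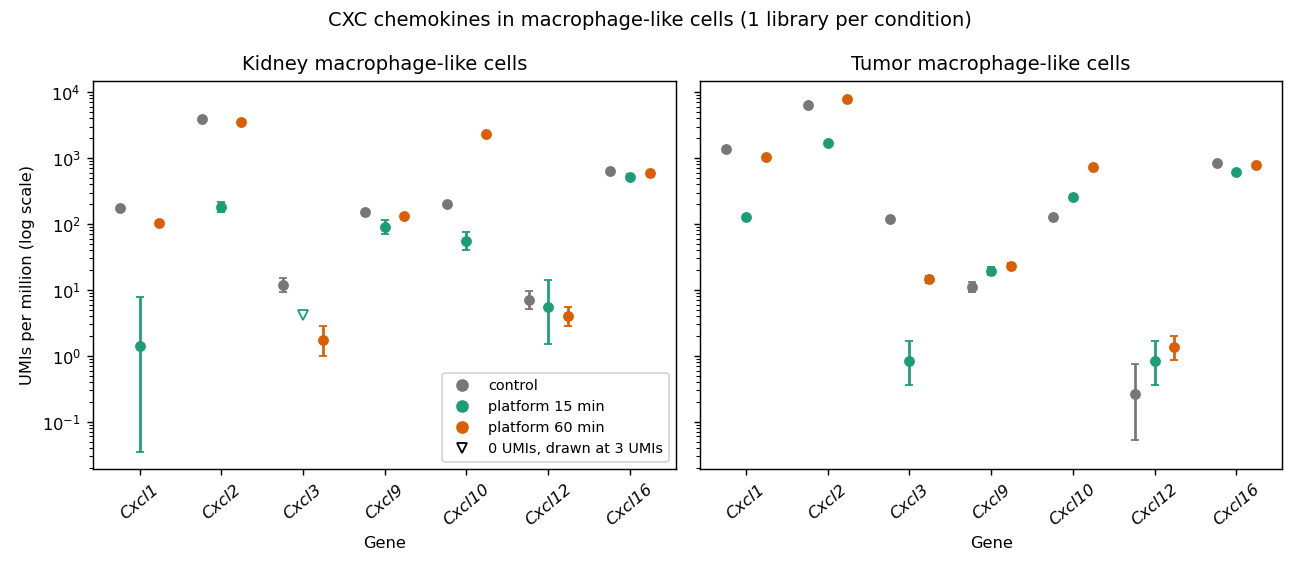
Level of each chemokine gene in macrophage-like cells of kidney and mammary tumor, in CPM on a log axis, with 95% Poisson intervals for the control, the 15 min interval and the 60 min interval. Open triangles mark 0 UMIs, drawn at the level of 3 UMIs. Cxcl10 is highest at 60 min in both tissues (2306 and 723), and the 15 min points of Cxcl1 and Cxcl2 lie below the other 2 libraries in both tissues, as does that of Cxcl3 in tumor.

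Cxcl10, the interferon-induced Cxcr3 ligand, was at 198 CPM in control kidney macrophage-like cells (1139 UMIs), 55.9 at 15 min (40 UMIs) and 2306 at 60 min (20995 UMIs). The 60 min interval thus stood above both other libraries, 11.6-fold above the control (interval 10.9 to 12.3) and 41.2-fold above 15 min (interval 30.3 to 57.7). A UMI of Cxcl10 was seen in 834 of 1497 macrophage-like cells at 60 min and in 125 of 836 in the control. In tumor macrophage-like cells the levels were 129, 260 and 723. The order of the control and the 15 min interval was thus the opposite of that in kidney, with tumor at 15 min 2.01-fold above its control (interval 1.89 to 2.15). That ratio lay between 1.66 and 2.1 under 9 other processing choices and so is at the limit of 2-fold.

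Outside macrophage-like cells the order of the libraries varied with the class. The kidney order of macrophage-like cells, with 60 min highest and 15 min lowest, was also that of T lymphocyte-like cells (27.4, 4.85 and 47.9), loop of Henle-like cells (12.5, 2.9 and 25) and proximal tubule-like cells (9.62, 4.58 and 12.3). The 15 min values of the T lymphocyte-like and loop of Henle-like cells came from 3 and 1 UMIs, and the proximal tubule-like shares of positive cells lay below those of T lymphocyte-like cells in all 3 libraries. Kidney endothelial-like cells had 429 in the control, 73.5 after 15 min and 82.8 after 60 min, so that the control was the high library, 5.18-fold above the 60 min interval. At 15 min 105 of the 107 endothelial-like UMIs came from 1 cell, and in the control the highest cell held 168 of 1025. Kidney dendritic cell-like cells had 132 in the control and 245 at 60 min. Tumor endothelial-like cells had 59.1, 2.04 and 67.7. Their share of cells with a UMI at 1000 UMIs per cell was below that of T lymphocyte-like cells in the control (2.06% against 2.44%) and at 60 min (2.88% against 6.11%). It was above that of luminal epithelial-like cells in these libraries (0.112% and 0.287%), and how far these levels are background was not tested. Tumor granulocyte-like cells had 402, 116 and 40, the last from 6 UMIs, an order opposite to that of the tumor macrophage-like cells, with the 15 min share (5.17%) below the T lymphocyte-like one (5.66%). That order rests on few cells, since 3 of 275 control cells and 2 of 110 at 15 min held 50% of these UMIs. In tumor T lymphocyte-like cells Cxcl10 was 34, 157 and 138. T lymphocytes are not known as a main source of Cxcl10, and the part of free RNA in these levels was not tested.

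Cxcl9, the other Cxcr3 ligand here, was led by dendritic cell-like cells in kidney, at 320 CPM in the control (43 cells) and 575 at 60 min (109 cells). Kidney macrophage-like cells had 151, 90.9 and 131 in the control, 15 min and 60 min libraries, none of them 2-fold from another. These levels came from few cells, since 3 of 836 control cells, 2 of 134 at 15 min and 6 of 1497 at 60 min held 50% of the Cxcl9 UMIs of the class. Kidney endothelial-like Cxcl9 was 2.09, 153 and 12.9, and all 223 UMIs of the 15 min value lay in 1 of 376 cells. In tumor, endothelial-like Cxcl9 was similar in the 3 libraries, at 40.9, 36.2 and 45, with 9.35%, 6.98% and 9.92% of cells positive. Tumor macrophage-like cells had 11, 19.5 and 22.9, and the 60 min level was 2.08-fold above the control (interval 1.7 to 2.56, and 1.36 to 2.56 over the processing choices). These levels also rest on few cells, with 50% of the UMIs in 3 of 995 control cells, 1 of 987 at 15 min and 3 of 1506 at 60 min. In tumor dendritic cell-like cells 95 of the 108 UMIs at 60 min were in 1 cell, and 20 control cells had none.

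Cxcl12, the homeostatic ligand of Cxcr4, had its highest kidney level in stromal-like cells, at 2546 CPM in the control (21 cells) and 1181 at 60 min (26 cells), with no such cell at 15 min. Kidney endothelial-like cells had only 4.81 to 17.3 over the libraries. In tumor, fibroblast-like cells had 552, 264 and 261 in the control, 15 min and 60 min libraries and endothelial-like cells had 469, 430 and 347. These 2 classes overlapped in level, and the endothelial-like cells held 63%, 63.4% and 61.5% of all Cxcl12 UMIs of the 3 libraries. The endothelial-like level at 60 min was 0.741 times the control (interval 0.684 to 0.803) and that of fibroblast-like cells 0.473 times. The fibroblast-like ratio ranged from 0.459 to 0.647 over the processing choices, and that of stromal-like cells, 0.464 in the main processing, from 0.318 to 0.63, so neither is firmly past 2-fold. In kidney proximal tubule-like cells Cxcl12 was 13.8, 12.7 and 10.5, in 7.94%, 8.88% and 6.27% of cells. Macrophage-like cells had almost none in tumor (0.26, 0.839 and 1.36, from 3, 8 and 24 UMIs), so the 5.24-fold difference between 60 min and control there has an interval of 1.59 to 27.2. Over the whole tumor library Cxcl12 was 25.9, 24.3 and 63.2, beside 321, 258 and 796 endothelial-like and 40, 69 and 299 fibroblast-like cells. A whole-library level does not separate the number of cells of a type from the RNA per cell. Within both classes the 60 min level was below the control, as given above.

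Cxcl16 in macrophage-like cells differed by less than 2-fold between any 2 libraries of a tissue. Kidney macrophage-like cells had 641 CPM in the control, 509 after 15 min and 592 after 60 min, and tumor macrophage-like cells had 837, 615 and 785. The 15 min library was the lowest in both tissues, at 0.794 times the control in kidney (interval 0.711 to 0.884) and 0.735 times in tumor (interval 0.711 to 0.759). A Cxcl16 UMI was seen in 91.5%, 77.6% and 87.3% of kidney macrophage-like cells and in 93.7%, 91.1% and 95.1% of those of the tumor. Dendritic cell-like cells were close in level, at 403 and 438 in kidney (control and 60 min) and 576 and 601 in tumor. Epithelium had a lower level, at 45, 44.1 and 55.2 in proximal tubule-like cells and at 36.8, 30.7 and 39 in luminal epithelial-like cells. In 2 smaller epithelial classes the 15 min level was at least 2-fold above the control, at 30.3, 66.8 and 46.7 in tumor basal epithelial-like cells (7, 25 and 50 UMIs) and at 25.1, 52.1 and 25.7 in kidney loop of Henle-like cells (10, 18 and 37 UMIs). These ratios, 2.21 and 2.08, were as low as 1.02 and 1.15 under other processing choices. Over all kept kidney cells Cxcl16 was 154, 48 and 157, with macrophage-like cells at 14.2%, 1.6% and 15.1% of kept cells.

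How far a gene was spread over macrophage-like cells differed between the genes. Of tumor macrophage-like cells, 25.9%, 23.8% and 25.8% (control, 15 min, 60 min) held 50% of the Cxcl16 UMIs. For Cxcl2 the same amount lay in 13.4%, 7.29% and 15.3% of cells, and for Cxcl1 in 8.74%, 2.63% and 6.71%. Cxcl10 was held by fewer cells in the control (1.81%) and at 15 min (1.22%) than at 60 min (5.58%). In kidney, 50% of the Cxcl10 UMIs lay in 11 of 836 control cells and in 140 of 1497 cells at 60 min. The tumor median cell had 41 Cxcl2 UMIs in the control library, 1 after 15 min and 53.5 after 60 min.

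Cxcl1 and Cxcl3 were found more often in macrophage-like cells with Cxcl2 than in those without, though many cells with Cxcl2 lacked Cxcl1. With each cell thinned to 1000 UMIs, Cxcl1 was expected in 48.5% of tumor control macrophage-like cells with Cxcl2 and in 6.87% of those without. At 15 min these shares were 16.1% and 1.36%, and at 60 min 42% and 2.86%. In kidney they were 14.9% and 0.932% in the control and 8.48% and 0.542% at 60 min. Cxcl3 was expected in 8.5% of tumor control cells with Cxcl2 and 0.697% of those without. In the kidney control the Cxcl3 shares were 2.16% and 0.0735%. Cxcl10 went with Cxcl2 as well, in 59% against 33.7% of kidney cells at 60 min and in 29.2% against 9.45% of tumor cells at 60 min. Cxcl16 was nearly as frequent in cells without Cxcl2 as in those with it, at 46.8% and 55.3% in the tumor control and 41.9% and 50.1% in the kidney control. Cells that were sequenced together share their library, and these shares are given as a description.

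T lymphocyte-like cells served as the background for shares of positive cells, except for Cxcl10 in tumor, since free RNA gives UMIs in cells that do not make a transcript. Their median depths were 5092 to 5333 UMIs in kidney and 4591 to 8001 in tumor, against 5287 to 6892 and 9368 to 11868 in macrophage-like cells, so shares were compared at 1000 UMIs per cell. Cells under that depth were left out, 9, 5 and 21 macrophage-like and 1, 0 and 6 T lymphocyte-like cells in kidney (control, 15 min, 60 min) and 19, 12 and 12 and 7, 1 and 4 in tumor. In kidney, Cxcl2 was expected in 41.2%, 6.49% and 38.9% of macrophage-like cells and in 0.951%, 0.77% and 0.797% of T lymphocyte-like cells. In tumor the Cxcl2 shares were 75%, 35.7% and 67.7%, against 4.47%, 0.971% and 4.26%. Without thinning they were 86.7%, 50.9% and 78.8%, against 19.8%, 4.4% and 15.3%. Kidney Cxcl10 was in 7.27%, 3.19% and 43.6% of macrophage-like cells against 1.5%, 0.461% and 2.48%. In tumor the Cxcl10 shares were 6.1%, 7.85% and 22.8% against 2.44%, 5.66% and 6.11%, so that the 15 min share lay close to the T lymphocyte-like one. Luminal epithelial-like cells had lower shares still (0.112%, 0.102% and 0.287%), so the T lymphocyte-like share is no floor for Cxcl10 in tumor. A share entered with at least 20 UMIs in its own class and no minimum in T lymphocyte-like cells. This filter favours classes in which the gene is high, and the share over all genes was not computed, so the counts describe these entries only. Of the shares so entered, 58 of 65 in kidney and 75 of 87 in tumor were above the T lymphocyte-like share of their library. The others were not above that share, among them Cxcl10 in proximal tubule-like and luminal epithelial-like cells in all 3 libraries, in tumor endothelial-like cells in the control and at 60 min, and Cxcl2 in control proximal tubule-like cells. Luminal epithelial-like Cxcl2 (4.95%, 1.2% and 5.94%) was barely above it.

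**Figure D3:**
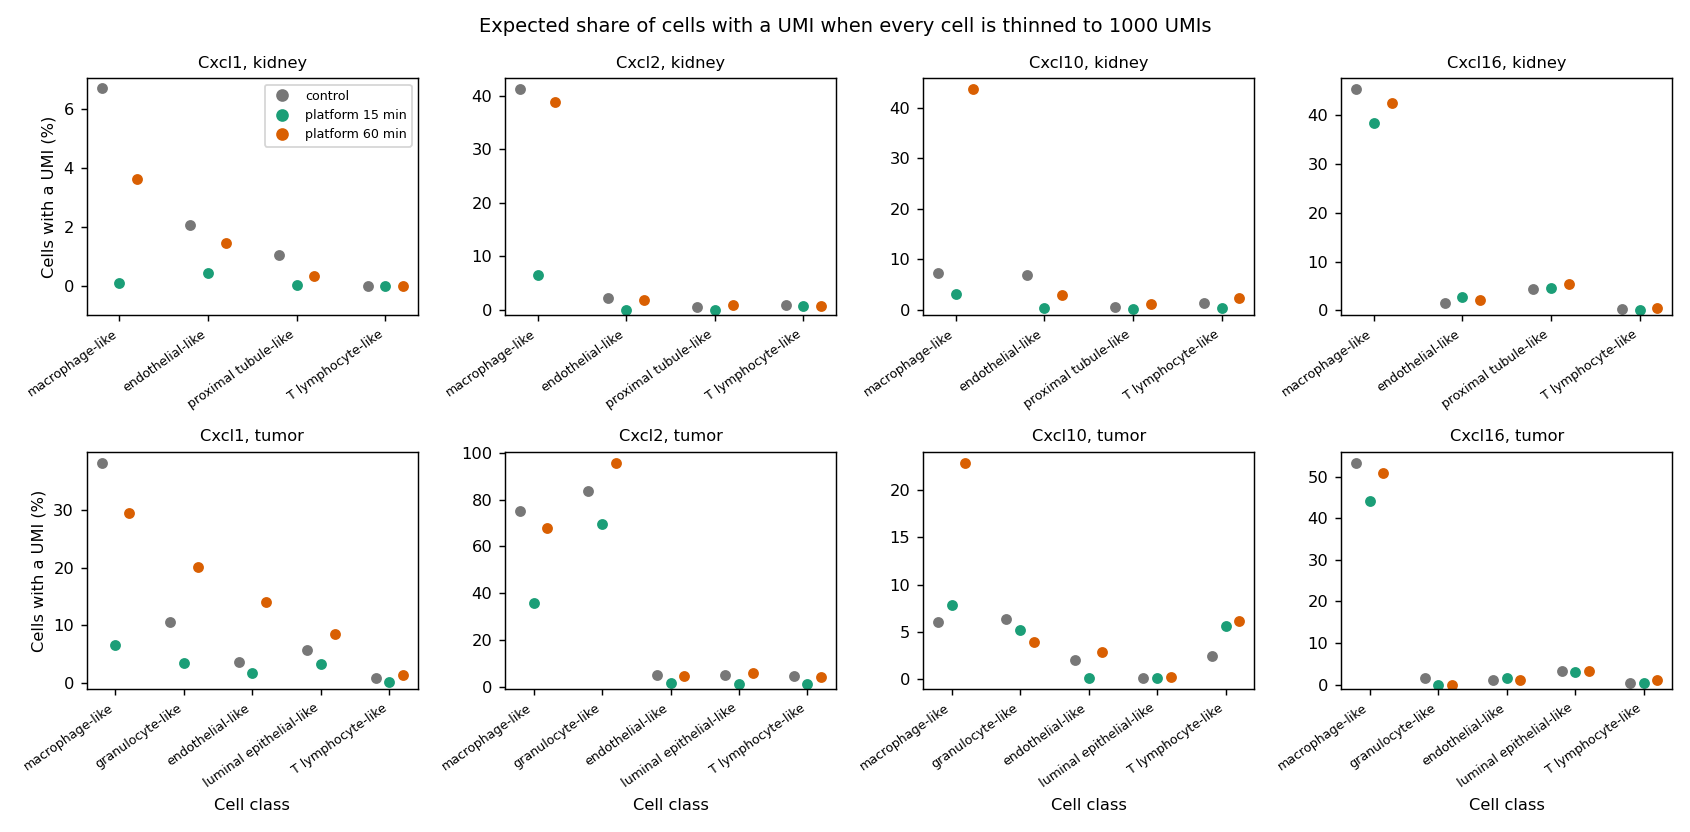
Expected percent of cells with a UMI of Cxcl1, Cxcl2, Cxcl10 or Cxcl16 after thinning each cell to 1000 UMIs, by class and library, in kidney and tumor. Macrophage-like and granulocyte-like cells lead Cxcl2, macrophage-like cells lead Cxcl10 at 60 min (43.6% in kidney, 22.8% in tumor), and T lymphocyte-like cells are the class for comparison.

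Receptors were read beside their ligands. Of 8 CXC receptors, 2 could be compared between 60 min and the control in macrophage-like cells of each tissue and 0 were 2-fold apart, and Cxcr4 was 226, 122 and 332 in kidney. Cxcr2 in granulocyte-like cells was 462 CPM in the kidney control and 364 at 60 min, and 511, 979 and 386 in the tumor control, 15 min and 60 min libraries. The Cxcl16 receptor Cxcr6 in T lymphocyte-like cells was 601, 465 and 549 in kidney and 197, 213 and 237 in tumor, with no 2-fold difference in either tissue. Cxcr3 in the same class was 187, 199 and 128 in kidney and 30.1, 53.6 and 36.6 in tumor, also within 2-fold. Over the classes of the tumor, 6 receptor levels were at least 2-fold apart between 60 min and the control. Of all pairs of gene and class, 5.71% were higher and 3.95% lower there, and the 6 are listed as a description. The scavenger Ackr3 in tumor fibroblast-like cells was 363, 328 and 145, and Ackr1, which binds inflammatory chemokines on venular endothelium, was 44.9, 45.4 and 104 in tumor endothelial-like cells and 69.6, 79.9 and 15.3 in fibroblast-like cells. Cxcr4 in T lymphocyte-like cells was 97 in the control and 267 at 60 min. The others were Ackr3 in basal epithelial-like cells, from 1 and 25 UMIs, and Cxcr2 in luminal epithelial-like cells, from 11 and 18 UMIs, both higher at 60 min with intervals of the ratio that include 1. Of the sheddases of Cxcl16, Adam10 in tumor macrophage-like cells was 49.2, 67 and 55.5 and Adam17 was 108, 99.2 and 105, with no 2-fold difference. Of 7 other CXC ligands in the files, 3 could be compared in tumor macrophage-like cells between 60 min and the control. Of these, 2 were at least 2-fold higher at 60 min, where 5.42% of all genes were. They were Cxcl13, a ligand of Cxcr5, and Pf4 (platelet factor 4), which was at 93.6, 145 and 200. Cxcl14 was the ligand of tumor fibroblast-like cells, at 865, 287 and 828.

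Lists of genes induced by the same signals were counted in macrophage-like cells, by the same limits as the chemokines. Of 10 NF-κB response genes, 6 were at least 2-fold lower (6.37% of all genes) and 0 higher (6.63%) at 15 min than in the kidney control, with a median ratio of 0.347. Tnf, a cytokine that activates endothelium, was 416, 127 and 1140, and Nfkbia, the inhibitor of NF-κB, was 1203, 474 and 1881. In tumor, 1 of the 10 was lower (4.49% of all genes) and 2 were higher (11.2%) at 15 min (median ratio 0.65), with Nfkbia at 1713, 1130 and 2133. Of 10 interferon response genes, 4 were higher (4.4% of all genes) and 0 lower (1.06%) in kidney at 60 min than in the control, and the median ratio was 1.08. The 4 were Isg15 (a ubiquitin-like antiviral protein), Ifit1 and Ifit3 (which bind viral RNA) and Rsad2 (viperin). Isg15 was 101, 103 and 861, Rsad2 was 58.4, 25.2 and 671, and Ifit1 was 21.3, 15.4 and 494. These 3 were highest in the library where Cxcl10 was highest. Irf7, a transcription factor of the interferon response, was 57.9, 88.1 and 62.5, with no 2-fold difference. In tumor, 5 of the 10 were higher (5.42% of all genes) and 0 lower (2.46%) at 60 min (median ratio 1.77), with Rsad2 at 57, 116 and 149. The median ratio over all genes was near 1 at 60 min, at 0.03 on the log2 scale in kidney and 0.02 in tumor.

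Immediate early genes encode transcription factors that are induced within minutes of a stimulus. In tumor macrophage-like cells 6 of 8 were at least 2-fold higher at 15 min than in the control (11.2% of all genes, median ratio 3.92), where Cxcl1, Cxcl2 and Cxcl3 were lower. Fos was 845, 4516 and 2880 and Egr1 was 222, 1618 and 758. In kidney macrophage-like cells 1 of 8 was higher (6.63% of all genes) and 1 lower (6.37%) at 15 min, with Fos at 1713, 3850 and 4816. Haemoglobin transcripts of red cells differed between the kidney libraries, with Hbb-bs at 0.871, 3386 and 643 in macrophage-like cells and all 4 haemoglobin genes at least 2-fold higher at 15 min and at 60 min than in the control. At 15 min all 2422 Hbb-bs UMIs lay in 1 of 134 cells, and at 60 min 24 of 1497 cells held the 5850 UMIs. In tumor macrophage-like cells Hbb-bs was at 0.692, 0.105 and 0.

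Genes whose level pattern was most like that of each chemokine were found by Pearson's r over the sums of a class in a library, 24 sums in kidney and 20 in tumor, which share libraries and depth. Cxcl2 in tumor was nearest to Gla (r = 0.945), Il1rn (0.945), the interleukin-1 receptor antagonist, and Ccrl2 (0.941), a chemokine-binding receptor. In kidney it was nearest to Gm29340 (0.889) and Lilr4b (0.88). Cxcl10 was nearest to Oasl1 (0.846), an interferon-induced gene, in kidney and to Aim2 (0.886), a sensor of cytosolic DNA, in tumor. Cxcl3 in tumor was nearest to Txnrd1 (0.969) and Cxcl1 to Hmox1 (0.828), both known as oxidative stress genes. Cxcl12 in tumor was nearest to Hspg2 (0.973) and Lamb1 (0.972), which encode basement membrane proteins. Cxcl16 was nearest to the lysosomal gene Psap (0.902) in kidney and to Arhgap22 (0.913) in tumor. Cxcl9 was nearest to Ifitm1 (0.92) in kidney and to Plekho1 (0.91) in tumor.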

How the data were processed

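Tissue was digested, sorted for live cells and loaded on a 10x Chromium (v3 chemistry), and the authors aligned reads to mm10 with Cell Ranger 3.1.0 and equalised depth between the libraries of a tissue on aggregation. The deposited values are raw UMI counts per gene and cell, before cell filters. Cells with 200 to 3000 genes and at most 50% mitochondrial UMIs (kidney), or 200 to 4000 genes and at most 25% (tumor), were kept, which left 33644880 to 61434200 UMIs per library. Classes followed the marker rule given above, with 14 marker lists for kidney and 11 for tumor. Counts were summed per class and library and divided by the class total; levels carry exact Poisson and shares exact Clopper-Pearson intervals, and ratios of counts exact conditional intervals. UMIs count molecules and not amplified copies, and intervals and floors (3 counts) cover counting error only. With 1 library per condition no test across genes was run. The ratio and its limits were tested on simulated counts. Named genes were all 7 chemokines and genes of fixed lists, plus those of the nearest pattern (at least 50 cells a sum, 100 UMIs a gene, log2 with a pseudocount of 1). The members and lists were chosen with earlier results of these data known. Alternatives were other gates, limits, depth and summing choices. Python 3.11.15, numpy 2.4.6, scipy 1.17.1, pandas 2.3.3 and matplotlib 3.10.9 were used.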

Additional observations from a re-analysis of the deposited data

Results flagged for a closer look

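Of 48 ratios that could be formed in both tissues, 4 were at least 2-fold in opposite directions in kidney and tumor. The share over all genes was not computed, so this count is a description only. None of these differences between tissues was tested, since each condition was 1 library, and sex, age, strain background and tissue cannot be told apart. Cxcl10 in macrophage-like cells, 15 min against control, had a ratio of 0.282 in kidney and 2.01 in tumor. The tumor ratio ran from 1.66 to 2.1 over 9 other processing choices and stayed past 2-fold in 5 of them. Cxcl10 in T lymphocyte-like cells, 15 min against control, had a ratio of 0.177 in kidney (3 against 25 UMIs) and 4.63 in tumor (191 against 61 UMIs). Cxcl2 in T lymphocyte-like cells had a ratio of 0.16 in kidney and 4.24 in tumor at 60 min against the control, and of 0.267 in kidney and 7.18 in tumor at 60 min against 15 min. These Cxcl2 values rest largely on single cells. In kidney 29 of 32 control UMIs and 13 of 13 UMIs at 15 min were in 1 cell, and in tumor 161 of 217 UMIs at 60 min were in 1 cell.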

How the results depend on the processing

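No paired analysis was possible because each condition was 1 library, so that each comparison held a single pair, and for the same reason no replicate could be left out. Of 195 ratios, 102 were past 2-fold and 75 of them stayed so under every alternative with a value. The alternatives of at least 50 UMIs and of no minimum of UMIs changed only which ratios entered and not their values, so ratios under them stayed by construction. With these included, 789 of 843 ratios past 2-fold (93.6%) stayed past it over all alternatives, and 6 of the 843 changed side. These were Cxcl10 in kidney B lymphocyte-like cells, 60 min against control (2.44 as a mean over cells, 10.2 without the top 1% of cells), Cxcl2 in kidney T lymphocyte-like cells, 60 min against control (1.27 by the mean-marker gate) and 60 min against 15 min (1.14 by the 2-marker gate, 1.99 by the mean-marker gate), and Cxcl1 in tumor dendritic cell-like cells, 60 min against control (1.18 by the mean-marker gate). Of 126 counts, 101 stayed within 1.5 times the main count. The kidney count of pairs higher at 15 min than in the control went from 2 to 1 (2-marker, 4-marker and mean-marker gates, at least 50 UMIs) or 0 (without the top 1%). The kidney count higher at 60 min than in the control went from 4 to 14 without upper limits, 13 by the 2-marker and by the mean-marker gate, 10 as a mean over cells, 9 without the top 1% and 8 with no minimum of UMIs, and the count lower from 6 to 11 with no minimum. The kidney count lower at 60 min than at 15 min went from 3 to 1 (2-marker and mean-marker gates, without the top 1%). In tumor, the count higher at 15 min than in the control went from 3 to 1 (no upper limits, 4-marker gate, mean over cells). At 60 min against the control the count higher went from 14 to 7 (4-marker gate) and the count lower from 6 to 3 (without the top 1%). The count lower at 60 min than at 15 min went from 1 to 2 (2-marker gate, no minimum) or 0 (mean-marker gate, without the top 1%, at least 50 UMIs). The cause was not tested. The 134 kidney macrophage-like cells at 15 min limit what can be read from that library.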

Other observations

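Cells without a class carried Cxcl2 at 177, 5.3 and 570 CPM in kidney (control, 15 min, 60 min) and at 2056, 705 and 2913 in tumor. Cxcl10 in the unclassed kidney cells was 51.6, 9.54 and 532, with the 60 min library highest as in the macrophage-like cells. Of other CXC genes outside the 7, the B lymphocyte receptor Cxcr5 was 108, 148 and 152 CPM in kidney B lymphocyte-like cells. Cxcl5, another Cxcr2 ligand, was found in tumor fibroblast-like cells at 60 min, with 119 UMIs in 299 cells, and had 0 UMIs in 40 control cells and in 69 cells at 15 min.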
